A study of Homo sapiens with 6 samples.

Results

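The genes described here are 5 keratins (KRT7, KRT8, KRT10, KRT18 and KRT19) and 5 claudins (CLDN1, CLDN3, CLDN4, CLDN7 and CLDN12), out of 62696 genes in the files. They were chosen by name from these gene families, with earlier results of these data known. Their RNA was measured by RNA-Seq in DMS53, an established human small cell lung cancer (SCLC) line of the neuroendocrine (NE) type. The control libraries (n = 3) came from cells transduced with an empty lentiviral vector, and the OC2-OE libraries (n = 3) from cells transduced with a vector for constitutive OC2 (ONECUT2) expression; both groups were selected with puromycin, and per the study's methods both vectors carry mGFP, as a tag on OC2 in the second. The comparison asks whether enforced OC2 expression altered these epithelial genes in an NE-SCLC line, and the 3 libraries of each condition are described in the study as independent experiments.

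Keratins are the intermediate filament proteins of epithelial cells. A filament is built from pairs of a type I keratin (KRT10, KRT18, KRT19) and a type II keratin (KRT7, KRT8), and KRT8 with KRT18 is the pair typical of simple, single-layered epithelia, to which KRT7 and KRT19 are added in ducts and airways. Claudins are membrane proteins that form the strands of tight junctions and set which ions pass between neighbouring cells. SCLC often keeps simple-epithelial keratins, stained in a dot-like pattern beside the nucleus.

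All 10 genes were expressed in both groups. Counts were scaled by library size with edgeR's TMM factors (CPM) and compared over 17307 testable genes, with an adjusted p under 0.001 as the threshold (edgeR quasi-likelihood test). Differences are given as log2FC, the log2 of OC2-OE over control, with the standard error (SE) of the fit. Of the 10 genes, 8 passed, where 56.5% of all tested genes did: 7 were lower in OC2-OE cells (28.7% of tested genes), 1 was higher (27.8%) and 2 did not pass. Lower were KRT7, KRT8, KRT10, KRT18, KRT19, CLDN3 and CLDN4, higher was CLDN12, and CLDN1 and CLDN7 had intervals that included 0. The 10 genes had a median log2FC of -0.41, beside 0.01 over all tested genes. In 8 of the 10 the CPM of the groups did not overlap, which held for 73.2% of tested genes. RNA from the whole culture was measured, so fewer cells with a transcript and less transcript per cell cannot be told apart.

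**Figure D1:**
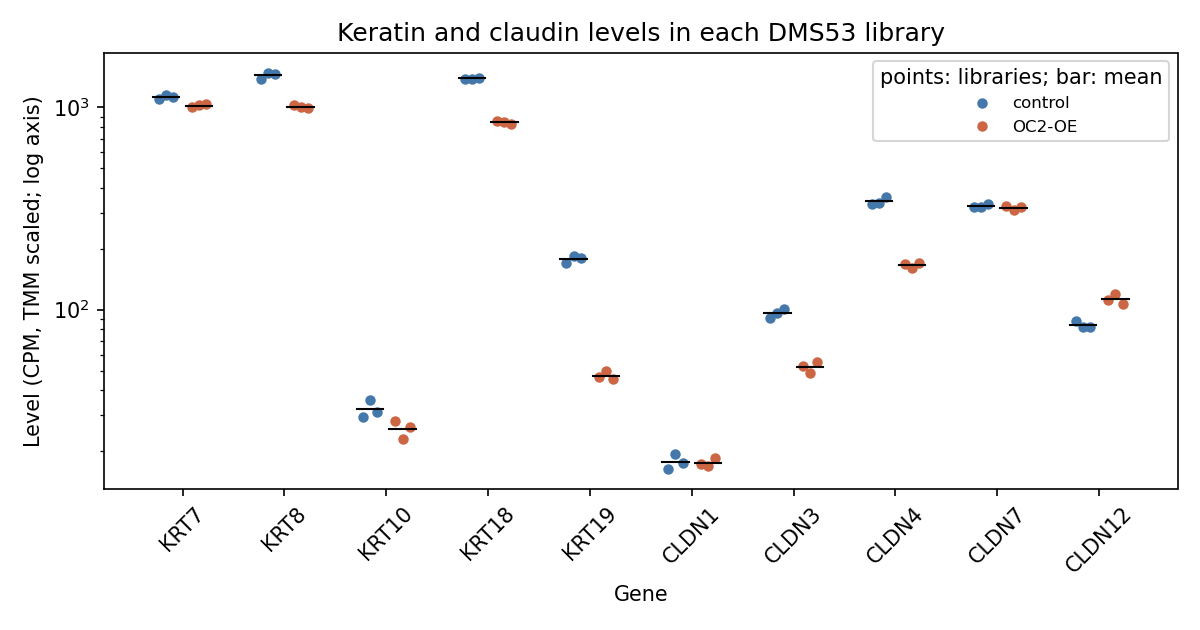
CPM of each gene (log axis) in the 3 control and 3 OC2-OE libraries, with a bar at each group's mean. The OC2-OE points of KRT19 lie between 45.4 and 49.6 CPM, below the control points from 170.1 to 183 CPM, whereas the points of CLDN1 and CLDN7 overlap.

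The libraries held 16533284 to 19099337 counted read pairs, and the 10 genes together took 0.482% to 0.501% of them in control and 0.366% to 0.369% in OC2-OE libraries. ONECUT2 itself, which checks the labels, had 394 to 465 counts in control and 68853 to 74031 in OC2-OE libraries. Of 5 NE markers, SYP, INSM1, NCAM1 and DDC were lower and CHGA was higher in OC2-OE cells, and they summed to 1379 to 1426 CPM in control and to 602 to 617 CPM in OC2-OE libraries. Of 6 fibroblast markers 3 could be tested and COL1A1 and PDGFRB were called higher, PDGFRB at few counts. PDGFRB had 3, 5 and 0 counts in control and 15, 12 and 22 in OC2-OE libraries. It passed the filter on low counts only through the OC2-OE libraries, so the size of its change is imprecise. The list summed to 21.2 to 23.9 CPM in control and 28.1 to 32.1 CPM in OC2-OE libraries. Over the 3 control and the 3 OC2-OE libraries, COL1A1 had 1117 and 1524 counts, COL1A2 27 and 65 (log2FC 1.17, adjusted p = 0.00214, not passed), PDGFRB 8 and 49, COL3A1 6 and 2, DCN 3 and 3, and LUM 6 and 0. Of 6 blood and endothelial markers 2 could be tested and CDH5 was called lower. CDH5 had 17, 14 and 21 counts in control and 1 in each OC2-OE library. It passed the filter on low counts only through the control libraries, so the size of its change is imprecise. The list summed to 3.17 to 4.12 CPM in control and 2.47 to 3.69 CPM in OC2-OE libraries, with CD3E at 0 counts. Over the 3 control and the 3 OC2-OE libraries, CDH5 had 52 and 3 counts, PECAM1 125 and 134, VWF 1 and 17, CD68 8 and 11, and PTPRC 0 and 3. The part of these markers in the results below was not tested.

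KRT18 and KRT8, the type I and type II partners of simple epithelia, were both lower in OC2-OE cells. KRT18 (ENSG00000111057.11) is placed at 52948871 to 52952906 on chromosome 12 (GRCh38, GENCODE 42). It measured 1385, 1389.8 and 1396 CPM in control libraries 1, 2 and 3 and 854, 845 and 831 CPM in the OC2-OE libraries, so that the groups were far apart relative to their spread. It fell to 60.7% of the control level, log2FC -0.72 ± 0.019 (SE), adjusted p = 7.23e-65. KRT8 (ENSG00000170421.13), on chromosome 12 from 52897187 to 52949954, had 1387, 1483 and 1469.7 CPM in control and 1026, 1009.6 and 994 CPM in OC2-OE libraries. The ranges of the groups lay apart. KRT8 fell to 69.8% of control, log2FC -0.52 ± 0.020 (SE), adjusted p = 7.06e-44. Exons of KRT8 and KRT18 overlap on opposite strands over 525 bases, 17.1% of the KRT18 exons, and the counting kept the strands apart.

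The balance of the partners was also compared. On a per-length scale (RPKM, the CPM divided by the exon length in kilobases), the ratio of KRT8 to KRT18 was 0.446, 0.476 and 0.469 in control libraries and 0.536, 0.533 and 0.534 in OC2-OE libraries. The ratio was 1.15 times as high in OC2-OE cells without overlap between the groups (exact two-sided permutation test, p = 0.10, the smallest value that 3 against 3 libraries allow). KRT8 has many processed pseudogenes, of which 39 of 51 held counts, and these summed to at most 2.84% of the KRT8 counts in any library. For KRT18, the 67 annotated pseudogenes summed to at most 0.297% of its counts. Read pairs aligned to several places were not counted, in either group.

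KRT19, an acidic keratin without the tail domain of other keratins and a marker of ductal and airway epithelium, changed most among the 10 genes. It lies on chromosome 17 from 41523617 to 41528308 (ENSG00000171345.13). In control libraries it had 170.1, 183 and 181 CPM, and in OC2-OE libraries 46.7, 49.6 and 45.4 CPM. The highest OC2-OE library was far below the lowest control library. The level was 26.5% of control, log2FC -1.91 ± 0.038 (SE), adjusted p = 2.40e-78. KRT19 made up 14.4% ± 0.451 (SD, n = 3) of the type I RPKM of KRT18 and KRT19 in control cells and 6.85% ± 0.260 (SD, n = 3) in OC2-OE cells (exact permutation test, p = 0.10, the smallest possible).

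KRT7, the second type II keratin and a marker of glandular and lung epithelium, changed little. It lies on chromosome 12 from 52232520 to 52252186 (ENSG00000135480.17) and had 1100.4, 1157 and 1120.3 CPM in control and 1005, 1024.5 and 1035 CPM in OC2-OE libraries. The groups did not overlap, although the gap between the closest libraries was small. Its level was 90.7% of control (log2FC -0.14, SE 0.020, adjusted p = 2.93e-10), and with library size alone the log2FC was -0.090 and still passed. The ratio of type II (KRT7 and KRT8) to type I (KRT18 and KRT19) RPKM was 0.929 ± 0.021 (SD, n = 3) in control and 1.36 ± 0.024 (SD, n = 3) in OC2-OE cells, again without overlap (exact permutation test, p = 0.10). KRT10, a type I keratin best known from the upper layers of the epidermis, lies on chromosome 17 from 40818117 to 40822614 (ENSG00000186395.9). It had 29.4, 35.6 and 31.2 CPM in control and 28.1, 23.0 and 26.2 CPM in OC2-OE libraries. The highest OC2-OE value lay just under the lowest control value. Its log2FC was -0.31 (SE 0.066, adjusted p = 2.22e-05), and the adjusted p was 0.00357 without control replicate 2 and 0.00230 without OC2-OE replicate 2, so that the call rested on these libraries (range over all alternatives 6.85e-07 to 0.00357).

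**Figure D2:**
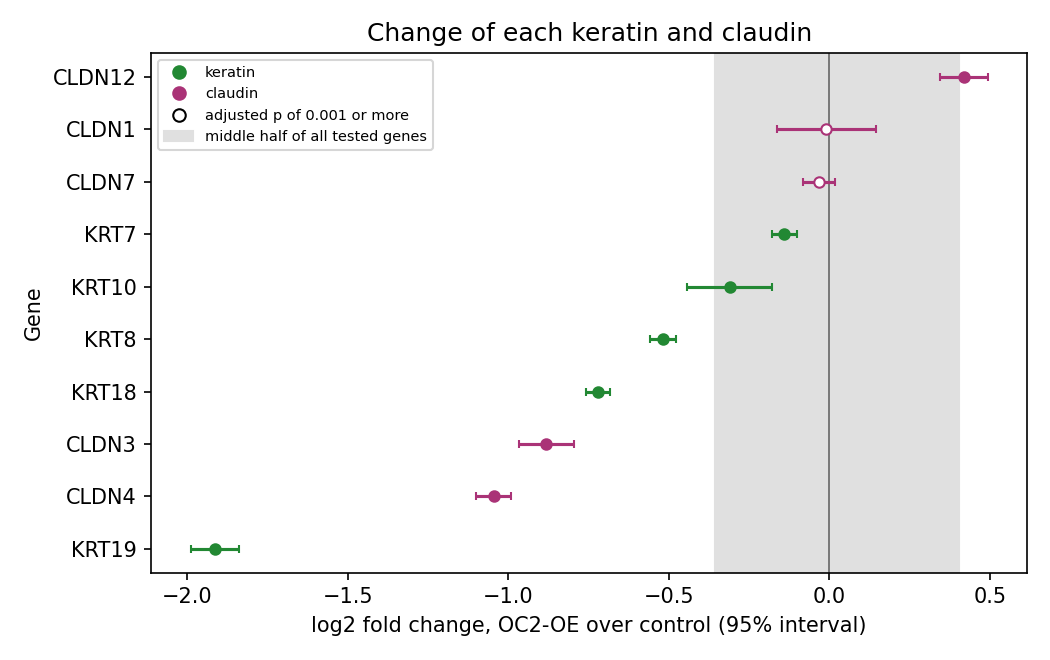
Log2 fold change of each gene (horizontal axis) with its 95% interval, keratins in green and claudins in purple, with open points for an adjusted p of 0.001 or more. KRT19 stands lowest at -1.91 and CLDN12 highest at 0.42, and the grey band from -0.36 to 0.40 runs from the lower to the upper quartile of all tested genes.

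CLDN3 and CLDN4, neighbouring genes for closely related claudins that also serve as receptors for Clostridium perfringens enterotoxin, were both lower. CLDN4 (ENSG00000189143.10), on chromosome 7 from 73799542 to 73832690, had 333, 337 and 360.5 CPM in control and 168, 160.2 and 170.15 CPM in OC2-OE libraries. It fell to 48.4% of control, log2FC -1.05 ± 0.028 (SE), adjusted p = 1.04e-57. CLDN3 (ENSG00000165215.6), on chromosome 7 from 73768997 to 73770270, had 91.4, 96.7 and 101 CPM in control and 52.6, 48.8 and 55.0 CPM in OC2-OE libraries. For both genes the OC2-OE libraries were well below the control libraries. CLDN3 fell to 54.2% of control (log2FC -0.88, SE 0.043, adjusted p = 1.60e-38). The ratio of CLDN3 to CLDN4 RPKM was 1.03 ± 0.024 (SD, n = 3) in control and 1.16 ± 0.035 (SD, n = 3) in OC2-OE cells, without overlap (exact permutation test, p = 0.10).

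CLDN7, a claudin found also along the lateral membrane of epithelial cells, had the highest RPKM of the 5 claudins in both groups. By CPM, which leaves out exon length, CLDN4 had the higher mean in control cells (343 CPM, beside 326 CPM for CLDN7). CLDN7 lies on chromosome 17 from 7259903 to 7263983 (ENSG00000181885.18) and had 323, 322 and 333 CPM in control and 324, 311 and 321 CPM in OC2-OE libraries. The ranges overlapped. Its exons share 269 bases (10.8%) with ENSG00000262302 on the same strand, where read pairs on both genes were not counted. The log2FC was -0.03 (95% interval -0.08 to 0.02, adjusted p = 0.2275), an interval that does not reach the values of CLDN3 or CLDN4. CLDN1, a claudin required for the barrier of the epidermis, lies on chromosome 3 from 190305707 to 190322446 (ENSG00000163347.6). It had the lowest RPKM of the 10 genes, with 16.3, 19.2 and 17.5 CPM in control and 17.3, 16.9 and 18.4 CPM in OC2-OE libraries. Its groups also overlapped, and its log2FC was -0.0094 (95% interval -0.16 to 0.15, adjusted p = 0.921). The sign of both values depended on the scaling and turned positive with library size alone, at 0.018 for CLDN7 and 0.041 for CLDN1; that of CLDN1 also turned without control replicate 2 (0.055), OC2-OE replicate 1 (0.0076) or OC2-OE replicate 2 (0.018).

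CLDN12, which lacks the C-terminal motif that binds the scaffold proteins of the tight junction in most claudins, was the one gene of the 10 that rose. It lies on chromosome 7 from 90383721 to 90513402 (ENSG00000157224.16). Its level was 88.05, 82.0 and 81.8 CPM in control and 111, 119 and 107 CPM in OC2-OE libraries. All 3 OC2-OE libraries were above all control libraries, and the mean was 134% of control (log2FC 0.42, SE 0.038, adjusted p = 7.93e-19). The annotated gene is long, and its exons share bases on the same strand with GTPBP10 (347 bases), CDK14 (201 bases), PTTG1IP2 (531 bases) and ENSG00000273299 (371 bases); read pairs that fell on 2 genes there were not counted.

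To show the DNA before claudin genes that fell (CLDN3, CLDN4), did not pass the test (CLDN7) and rose (CLDN12), the 250 bases before the RefSeq start of each are given for GRCh38.p14, 5′ to 3′ on the strand of the gene. Motif matches found on either strand (as the word or as its reverse complement, such as CCGCCC or CACCTG) are in capitals. The motifs searched were ATTGAT and ATCGAT, core words of ONECUT sites, CAGGTG, an E-box bound by SNAI and ZEB repressors, GGGCGG, the GC box, and TATAAA, the TATA word. The windows are chr7:73770271-73770520 on the minus strand for CLDN3, chr7:73830746-73830995 on the plus strand for CLDN4, chr17:7262479-7262728 on the minus strand for CLDN7 (the nearer to its coding part of 2 RefSeq starts) and chr7:90403211-90403460 on the plus strand for CLDN12.
CLDN3: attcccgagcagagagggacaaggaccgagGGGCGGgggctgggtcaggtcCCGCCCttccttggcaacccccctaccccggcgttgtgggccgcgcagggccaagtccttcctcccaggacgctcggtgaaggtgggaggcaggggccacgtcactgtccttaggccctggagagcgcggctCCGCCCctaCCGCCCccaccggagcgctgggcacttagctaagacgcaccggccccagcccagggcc
CLDN4: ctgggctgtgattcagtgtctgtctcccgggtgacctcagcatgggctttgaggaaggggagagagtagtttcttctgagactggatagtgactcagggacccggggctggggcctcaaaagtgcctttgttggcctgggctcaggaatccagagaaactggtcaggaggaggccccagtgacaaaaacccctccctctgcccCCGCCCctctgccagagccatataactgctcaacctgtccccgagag
CLDN7: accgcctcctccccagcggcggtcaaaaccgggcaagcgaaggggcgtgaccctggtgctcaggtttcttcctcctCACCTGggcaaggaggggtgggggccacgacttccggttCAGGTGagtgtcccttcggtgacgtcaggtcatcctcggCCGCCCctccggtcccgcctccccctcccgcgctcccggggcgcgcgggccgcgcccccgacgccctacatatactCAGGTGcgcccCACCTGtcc
CLDN12: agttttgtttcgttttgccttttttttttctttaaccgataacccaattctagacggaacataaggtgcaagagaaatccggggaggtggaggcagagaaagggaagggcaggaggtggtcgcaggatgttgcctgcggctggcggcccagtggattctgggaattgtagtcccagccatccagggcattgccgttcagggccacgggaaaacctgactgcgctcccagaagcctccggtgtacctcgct
CLDN3 held 4 matches to GGGCGG, CLDN4 held 1, CLDN7 held 1 together with 4 matches to CAGGTG, and CLDN12 held no match to any of the 5 words. The other CLDN7 window, before the farther start, held none either. In all, 7 of the 10 genes had windows in the RefSeq table, 8 windows together. KRT7, KRT18 and KRT19 had no window there. Among the windows not printed, CLDN1 held 2 matches to GGGCGG, KRT10 held 1 to TATAAA and KRT8 held none. Neither ATTGAT nor ATCGAT was found in these 8 windows. Of all 35116 windows of this length, 5.58% and 0.655% held them, so no match among 8 windows is not unusual. CAGGTG was found in 17.5%, GGGCGG in 42.6% and TATAAA in 10.7% of all windows. A match is only a description of the letters in the window.

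The composition of both families differed between the groups. The summed RPKM of the 5 keratins was 1036 ± 19.4 (SD, n = 3) in control and 709 ± 3.26 (SD, n = 3) in OC2-OE cells, 68.5% of control. KRT18 held 43.7% of this sum in control and 38.8% in OC2-OE cells, KRT7 27.2% and 36.0%, KRT19 7.35% and 2.85%, each without overlap between groups, whereas KRT8 held 20.3% and 20.7%, with overlap. For the 5 claudins the sum was 297 ± 8.51 (SD, n = 3) in control and 226 ± 5.49 (SD, n = 3) in OC2-OE cells, 76.0% of control (exact permutation test, p = 0.10 for each family). CLDN7 took 44.1% of the claudin sum in control and 56.6% in OC2-OE cells. CLDN3 and CLDN4 took 25.4% and 24.6% in control and 18.1% and 15.7% in OC2-OE cells, and the groups did not overlap for any of the 3 genes. In control cells, the order by RPKM was KRT18, KRT7, KRT8, CLDN7, KRT19, CLDN3, CLDN4, KRT10, CLDN12 and CLDN1, and KRT19, CLDN3 and CLDN4 could not be separated beyond their spread. In OC2-OE cells CLDN3 and CLDN4 stood above KRT19, and CLDN12 above KRT10, with no overlap between neighbours. RPKM of different genes depends on the exon length that the annotation gives, which for KRT8 is 6881 bases because alternative exons are included. This length is 4699 bases for CLDN4 and 2492 bases for CLDN7, so the shares and order of the claudins rest on it too.

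**Figure D3:**
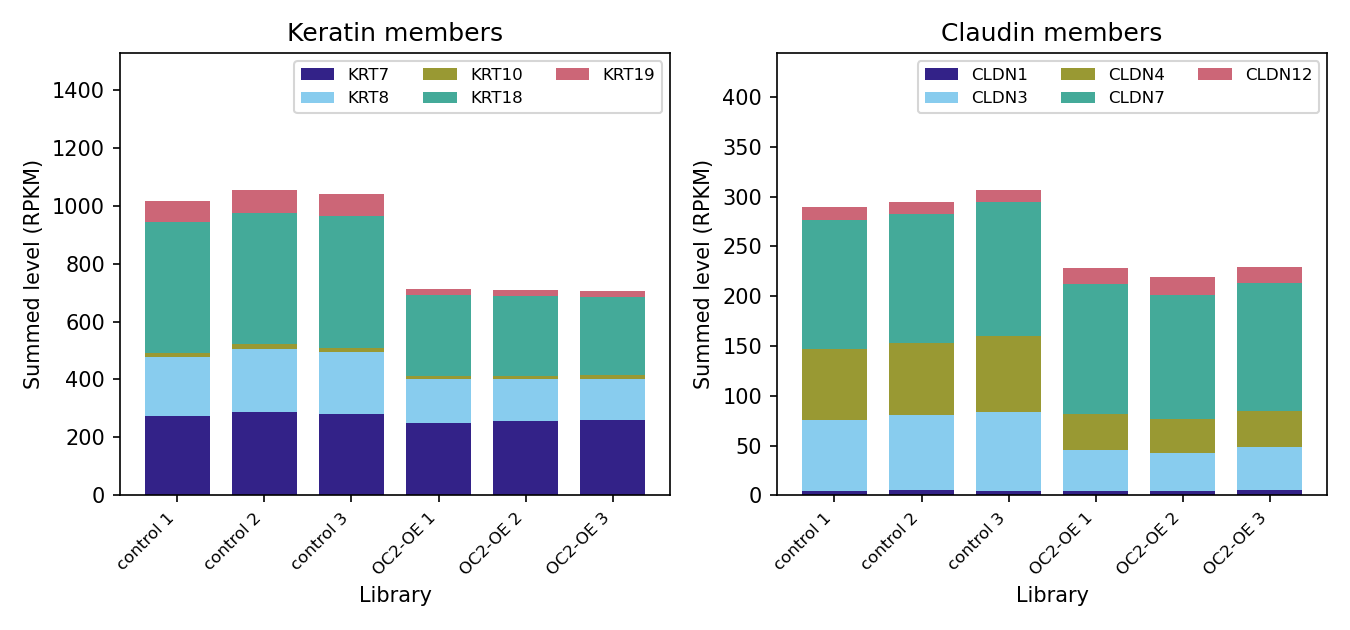
Stacked RPKM of the 5 keratins (left) and 5 claudins (right) in each library. The keratin sum lies between 1015 and 1053 in control and between 706 and 712 in OC2-OE libraries, and the claudin bars shrink mainly in the CLDN3 and CLDN4 segments.

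The other members of both gene families were mostly silent. Of 50 other keratins, 41 had at most 10 counts over the 6 libraries and 4 could be tested. Of these, 3 were lower (28.7% of all tested genes were) and KRT86 did not pass (log2FC -0.60), with a median log2FC of -1.47. KRT40, a type I keratin, fell (log2FC -2.43), with 43.3 ± 1.04 CPM in control and 8.04 ± 1.32 CPM in OC2-OE cells (SD, n = 3; SE of the log2FC 0.076, adjusted p = 4.29e-57). KRT15, a type I keratin of basal epithelial cells that is coded next to KRT19, fell (log2FC -1.78), with 6.79 ± 0.704 CPM in control and 1.98 ± 0.328 CPM in OC2-OE cells (SD, n = 3). KRT80, a type II keratin found at desmosome margins and coded near KRT7, fell (log2FC -1.16), with 155 ± 2.67 CPM in control and 69.8 ± 3.15 CPM in OC2-OE cells (SD, n = 3). KRT5 and KRT14, the pair of basal squamous cells, had 1 count each over all libraries.

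Of 19 other claudins, 5 could be tested, with 3 lower (28.7% of all tested genes), none higher (27.8%) and a median log2FC of -0.65. CLDN18, one splice form of which is typical of lung, fell (log2FC -1.45), with 5.70 ± 0.919 CPM in control and 2.09 ± 0.231 CPM in OC2-OE cells (SD, n = 3; SE of the log2FC 0.17, adjusted p = 5.01e-13). CLDN10 and CLDN11 had log2FCs of -0.78 and -0.65, from 7.78 and 5.12 CPM in control cells. CLDN11 did not pass with the DESeq2 Wald test (adjusted p = 0.00267) or in 4 of 6 leave-one-out fits, those without control replicate 1 or 2 or OC2-OE replicate 2 or 3 (adjusted p = 0.00112 to 0.00158). CLDN15 and CLDN23 did not pass, with log2FCs of 0.10 and -0.12. These other claudins together summed to 38.6 to 42.4 CPM in control and 30.7 to 34.4 CPM in OC2-OE libraries.

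Genes whose products meet claudins or keratins at junctions included genes that rose and genes that fell. All 18 tight junction partners could be tested, with 5 higher (27.8% of all tested genes) and 7 lower (28.7%). Their median log2FC was -0.04, where all tested genes had 0.01. The scaffold proteins CGNL1 and CGN, cytoplasmic proteins of the junction, fell by 1.86 and 0.64 on the log2 scale, CGNL1 from 24.5 ± 2.55 to 6.77 ± 0.516 CPM (SD, n = 3). JAM2, a junctional adhesion molecule, was called higher (log2FC 3.39), with 5, 9 and 4 counts in control and 66, 66 and 72 in OC2-OE libraries. It passed the filter on low counts only through the OC2-OE libraries and has no value where 10 counts are required in every library, so its fold is imprecise. OCLN, a partner of claudins in the strand, fell (log2FC -0.35). TJP1, a scaffold that binds the claudin tail, fell (log2FC -0.20), and the scaffold TJP3 rose (log2FC 0.30). The PDZ scaffolds MPDZ and PATJ and the polarity kinase gene PRKCI rose (log2FC 0.55, 0.42 and 0.24), and MARVELD2, JAM3 and PARD3 fell (log2FC -0.26, -0.34 and -0.53).

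For desmosome and plakin genes, which anchor keratin filaments, 13 of 14 could be tested. Of these, 7 were higher (27.8% of all tested genes) and 4 lower (28.7%), with a median of 0.45. DSP, the desmosomal plakin to which keratin filaments attach, fell (log2FC -1.19), with 799 ± 9.63 CPM in control and 351 ± 2.94 CPM in OC2-OE cells (SD, n = 3; SE of the log2FC 0.022, adjusted p = 2.04e-82). JUP, which links desmosomal cadherins to DSP, fell by 0.98 on the log2 scale. Of the other plakins on the list, EVPL, DST and PLEC rose (log2FC 1.12, 1.07 and 1.01) and PPL fell (log2FC -0.35). Of the plakophilins, PKP3 rose (log2FC 0.66), PKP4 fell (log2FC -0.44), and PKP1 and PKP2 did not pass (log2FC 0.43 and -0.65). The desmosomal cadherins DSG2 and DSC2 and the membrane protein PERP rose (log2FC 0.60, 0.74 and 0.45).

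Among 13 other intermediate filament genes 12 could be tested, and 5 were higher (27.8% of all tested genes) and 7 lower (28.7%), with a median of -0.41. GFAP had the largest change, a log2FC of -1.99 from 287 counts in control to 76 in OC2-OE libraries. Of the nuclear lamins, LMNB1 fell from 198 ± 7.40 to 65.8 ± 2.62 CPM (SD, n = 3), and LMNA rose from 35.9 ± 2.33 to 68.3 ± 2.89 CPM (SD, n = 3; log2FC 0.93). LMNB2 was called lower (log2FC -0.13), but its groups overlapped and it did not pass with library size, upper-quartile scaling, the DESeq2 Wald test, limma voom, the 10-count filter or in 5 of 6 leave-one-out fits, all except that without control replicate 1. DES also fell (log2FC -1.06), with 150 counts in control and 76 in OC2-OE libraries. VIM, the mesenchymal filament gene, was called higher (log2FC 1.34) but had 33 counts in all control and 89 in all OC2-OE libraries, and it did not pass without control replicate 3 or OC2-OE replicate 2 (adjusted p = 0.00247 and 0.00244) or with the DESeq2 Wald test (adjusted p = 0.00217). With 12, 14 and 7 counts in control and 30, 34 and 25 in OC2-OE libraries, VIM has no value where 10 counts are required in every library. Its control libraries alone would not have passed the filter on low counts, so the fold of VIM is imprecise. The neurofilament genes NEFL and NEFM rose by 0.74 and 0.72, and INA and NES fell by 0.68 and 0.89. PRPH (log2FC -0.85) and SYNM (log2FC 0.29) passed, but neither did with the DESeq2 Wald test, without control replicate 3 or without OC2-OE replicate 1, nor SYNM without control replicate 2.

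All 10 epithelial adherens genes could be tested, with 7 higher (27.8% of all tested genes), 2 lower (28.7%) and a median of 0.16. CDH3 and NECTIN1 fell by 1.02 and 0.98 on the log2 scale, and NECTIN4 rose by 0.80. EPCAM, an epithelial surface protein that binds CLDN7, rose (log2FC 0.34), with 729.9 ± 14.4 CPM in control and 925 ± 4.17 CPM in OC2-OE cells (SD, n = 3; SE of the log2FC 0.020, adjusted p = 3.53e-32). CDH1, the E-cadherin of adherens junctions, did not pass, with 359 ± 13.6 CPM in control and 372 ± 1.97 CPM in OC2-OE cells (SD, n = 3, log2FC 0.05, adjusted p = 0.0578 by edgeR). This depended on the scaling: CDH1 passed with library size alone (log2FC 0.10, adjusted p = 0.000106) and with upper-quartile scaling (log2FC 0.092, adjusted p = 0.000336). Of the genes called higher, CTNND1, AFDN and CTNNB1 (log2FC 0.45, 0.16 and 0.13) did not pass with the DESeq2 Wald test, CTNND1 did not pass with limma voom (adjusted p = 0.00123), and 1 to 3 of them were lost in each leave-one-out fit.

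By level over the 6 libraries, the genes most like KRT19 were CCNF, ATOH8 and LGI2. They were those of 11188 genes with the smallest root mean square difference from KRT19 in log2 CPM, 0.051, 0.055 and 0.056, after each gene was centred on its control mean. Their log2FCs were -1.91, -1.96 and -1.92. The 6 libraries form only 2 groups, so the measure covers one difference.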

How the data were processed

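In all, 6 DMS53 libraries, 3 control and 3 OC2-OE, were sequenced after poly(A) selection with a stranded kit. The authors deposited raw counts: per the file headers, read pairs were assigned by strand to the exons of 62696 GENCODE release 42 genes with featureCounts version 1.6.0, with reads in several places or on several genes left out, and the submitters' processing notes name GRCh38 and STAR 2.7.9a. The depth, 16533284 to 19099337 counts, limits the precision of genes with few counts.

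Symbols were matched by Ensembl identifier for 62625 genes. In R 4.3.3, counts were scaled by TMM, filtered with filterByExpr and compared by the quasi-likelihood test of edgeR 4.0.16 without a replicate term, with Benjamini-Hochberg adjustment over all 17307 tested genes and the threshold of 0.001 used in the study. SE was |log2FC| divided by the root of the F statistic. RPKM used the exon length in the files. Ratios were compared by exact two-sided permutation over libraries. The steps were tested on simulated data in which far fewer genes changed than were called here. Scaling under so broad a change was not tested in this way. The labels do not say whether libraries came from separate cultures, so p-values measure the spread between these libraries.

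The members and the lists were chosen with earlier results of these data known. Named on each list were the 3 genes that changed most among those with an adjusted p under 0.001 and a mean log2 CPM of at least 1; all other genes named from these lists were chosen after their values were seen. Alternatives were DESeq2 1.42.0 (size factors, Wald test), limma 3.58.1 voom, library size, upper quartile, other filters, ONECUT2 left out, a replicate block, leave-one-out fits and other thresholds.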

Additional observations from a re-analysis of the deposited data

How the results depend on the processing

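Of 150 member log2FC values under other settings, 141 kept their direction and side of the threshold. CLDN1, which did not pass in any of the settings run, turned positive with library size only (0.041), with upper-quartile scaling (0.033), without control replicate 2 (0.055), without OC2-OE replicate 1 (0.0076) and without OC2-OE replicate 2 (0.018). CLDN7 turned positive with library size only (0.018) and upper-quartile scaling (0.010). In the leave-one-out fits KRT10 ran from -0.38 to -0.23 (log2FC; not past the threshold without control replicate 2 or OC2-OE replicate 2) and CLDN1 from -0.072 to 0.055, 6 or 7 members were lower, and 2 or 3 other claudins (3 with all libraries), 8 to 12 other intermediate filament genes (12) and 6 to 8 epithelial adherens genes (9) were called. The DESeq2 Wald test called 2, 8 and 6 of these, limma voom 3, 11 and 8, and library size or upper-quartile scaling 10 adherens genes. A minimum log2FC of 1 in size left 0 members higher and 2 lower (KRT19 and CLDN4), 2999 genes in all, 1 other claudin, 2 tight junction partners, 4 desmosome and plakin genes, 4 other intermediate filament genes and 1 epithelial adherens gene. By counts without length, which rescales the KRT8 to KRT18 and CLDN3 to CLDN4 ratios by a constant, the OC2-OE minus control difference was 0.157 instead of 0.070 for KRT8 to KRT18, 0.641 instead of 0.434 for type II to type I, -6.04 instead of -7.54 percentage points for the KRT19 share, and 0.033 instead of 0.123 for CLDN3 to CLDN4. The deviations of libraries with the same replicate number correlated at 0.00081 to 0.024, so no effect shared by number was seen. The libraries of a group differed little, so this cannot show whether the numbers pair the samples. With the replicate block the number of genes called was 9642 instead of 9776, and the members' calls were as without it (KRT19 -1.91, KRT10 -0.31, CLDN12 0.42).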

Other observations

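Pseudogenes and antisense RNAs of the 2 families were also measured, and were looked at after the main values were seen. Of the KRT8 pseudogenes, 8 could be tested. KRT8P3 was lower in OC2-OE cells, with 890 counts over the control libraries and 615 over the OC2-OE libraries, log2FC -0.62 ± 0.087 (SE; adjusted p = 4.11e-10, edgeR). The other 7 did not pass, with log2FC values from -1.01 (KRT8P36) to 0.68 (KRT8P30). These near copies of KRT8 can share reads with it, so their values are uncertain.

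CLDN10-AS1, antisense to CLDN10, was called lower (log2FC -2.56 ± 0.35, SE), with 102 counts over the control and 18 over the OC2-OE libraries. Its counts were 46, 28 and 28 in control and 5, 4 and 9 in OC2-OE libraries. It passed the filter on low counts only through the control libraries, so its fold is imprecise. CLDN10 itself fell by 0.78, and the difference between these 2 folds was not tested. KRT7-AS and KRT10-AS1, antisense to KRT7 and KRT10, did not pass, with log2FC values of 0.10 (adjusted p = 0.687, edgeR) and 0.07 (adjusted p = 0.553, edgeR).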
